A study of Homo sapiens with 9 samples.

Results

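The Notch pathway was described here through 10 of its genes in lists of Argonaute (Ago) binding peaks: the ligands JAG1 and JAG2, the receptors NOTCH1, NOTCH2 and NOTCH3, the protease ADAM17, the membrane-associated inhibitor NUMB, the DNA-binding effector RBPJ, its co-activator MAML1, and the target gene HES1. A peak was assigned to a gene when its midpoint lay between the ends of the gene on the same strand. By this rule, 16 of 3450 peaks of the miR-342-3p list and 22 of 5010 peaks of the miR-342-5p list belonged to the pathway genes.

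The peaks came from Ago-HITS-CLIP, in which Ago is crosslinked by UV to the RNA it holds, immunoprecipitated, and the attached RNA fragments sequenced. The cells were MDA-MB-231HM (231HM), a highly metastatic variant of the human triple negative breast cancer (TNBC) line MDA-MB-231, so that all values describe 1 cell line. They were transfected at 20 nM with a double-stranded mimic of either strand of miR-342 or of a negative control miRNA and crosslinked after 48 h, with 3 libraries for each mimic and 9 in all. The authors called peaks of each strand over the control mimic with the replicates merged, so that both lists rest on the same control libraries. Each condition is therefore represented by 1 list, no spread between replicates could be given, no test between the lists was made, and the depth of the libraries is unknown. The score of a peak, which the authors describe as reads above background, was at least 5 throughout. Binding that did not reach this minimum is not visible in the lists, and neither is binding that was as strong with the negative control mimic. RNA levels were not analysed here, so that absence of a peak and low abundance of a transcript cannot be told apart.

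Notch signalling passes between touching cells. A ligand of the Jagged or Delta-like family on one cell pulls on a Notch receptor on its neighbour, which exposes the receptor to cleavage by an ADAM metalloprotease and then by γ-secretase within the membrane. The freed intracellular domain enters the nucleus, where it joins RBPJ and a Mastermind co-activator and switches on genes of the HES and HEY families. In breast epithelium the pathway takes part in the choice of cell fate, and Jagged1 and the receptors have been studied as drivers of growth and spread in TNBC.

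The 2 strands of miR-342 have unrelated seeds. The mature sequences (RefSeq, GRCh38.p14) are printed with bases 2 to 8, the seed, in capitals:
miR-342-3p: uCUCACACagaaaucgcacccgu
miR-342-5p: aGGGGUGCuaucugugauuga
Seed sites were searched within 50 nt of each summit on the strand of the peak. The 8mer GUGUGAGA, the 7mer-m8 GUGUGAG and the 7mer-A1 UGUGAGA match miR-342-3p. The 8mer GCACCCCA, the 7mer-m8 GCACCCC and the 7mer-A1 CACCCCA match miR-342-5p. A 7mer-m8 pairs with bases 2 to 8, a 7mer-A1 with bases 2 to 7 followed by an A, and the 8mer holds both.

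The sites that follow, all on the strand of the gene, are those nearest to the summits of the pathway peaks. Sequence is from GRCh37, the build of the peak lists, with the match in capitals. The miR-342-3p sites are named by gene and peak score:
JAG1, score 26, chr20:10629310-10629316, minus strand: caggcgaucacUGUGAGAgagacaucgau
JAG1, score 10, chr20:10633146-10633152, minus strand: ggcagugccucUGUGAGAccaacuggggc
RBPJ, score 22, chr4:26326018-26326024, plus strand: ugaugugucguGUGUGAGugugugugugu
The miR-342-5p sites are named in the same way:
NOTCH2, score 170, chr1:120462223-120462230, minus strand: uacagauggcuGCACCCCAuugauguuggc
NOTCH2, score 101, chr1:120459051-120459057, minus strand: agccugaagcaCACCCCAaugggcaagaa
NOTCH2, score 101, chr1:120458053-120458059, minus strand: gucaaguucauCACCCCAcucugcuucug
NOTCH2, score 22, chr1:120468187-120468193, minus strand: aacucuacacgGCACCCCccagcaccccu
NOTCH1, score 19, chr9:139410495-139410501, minus strand: cgagugugccaGCACCCCcugcaagaaug
NOTCH1, score 17, chr9:139391571-139391577, minus strand: cucccuggaguCACCCCAuggcuaccugu
ADAM17, score 58, chr2:9631232-9631238, minus strand: ugucucuguuuCACCCCAguguaaguaua
The first bases of the NOTCH2 run with the score of 170 and the last bases of the ADAM17 run lie in introns, since both sites are close to an exon edge. The NOTCH2 run with the score of 22 also shows a second 7mer-m8 of the same exon, in lower case.

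Across the pathway, the miR-342-3p list reached 6 of the 10 genes and the miR-342-5p list 3. JAG1, RBPJ and MAML1 had peaks of miR-342-3p alone, while NOTCH1, NOTCH2 and ADAM17 had peaks of both strands. No gene had miR-342-5p peaks alone, and JAG2, NOTCH3, NUMB and HES1 had no peak in either list. Over all 20163 protein-coding genes, 11.8% had a miR-342-3p peak and 11.8% a miR-342-5p peak. The 10 genes were chosen with results of these data known, so that their numbers are not to be read as an enrichment. The miR-342-3p peaks were spread over ligand, receptors, protease and nuclear effectors, whereas 16 of the 22 miR-342-5p peaks belonged to NOTCH2.

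**Figure D1:**
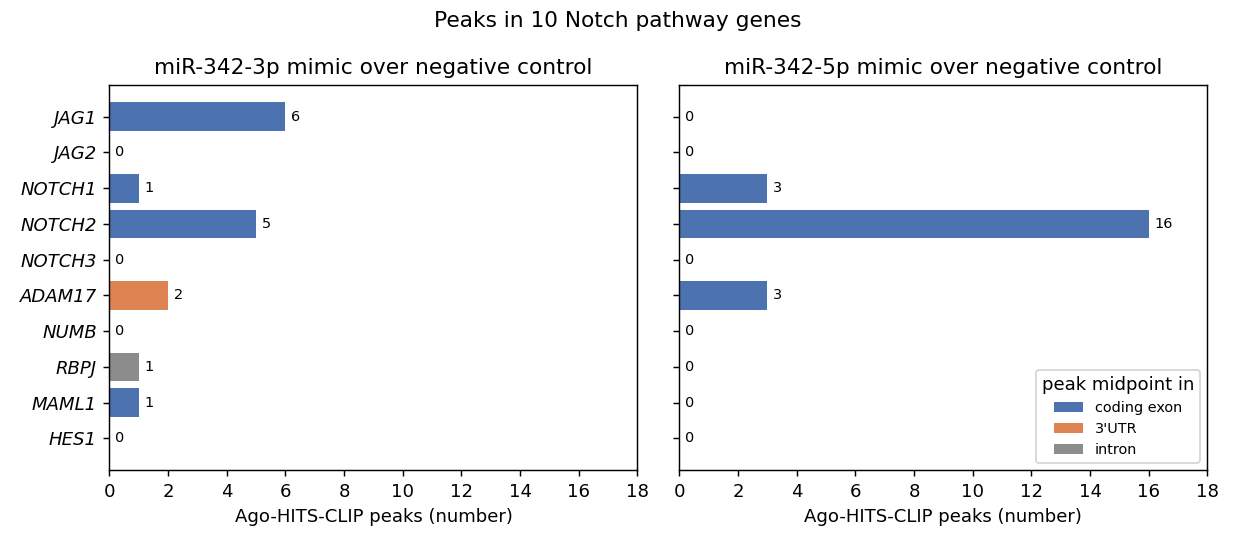
Number of peaks (horizontal axis) in each of the 10 Notch pathway genes (vertical axis) in the miR-342-3p list (left) and the miR-342-5p list (right), coloured by the location of the peak midpoint, with totals beside the bars. JAG1 had 6 peaks on the left and 0 on the right, and NOTCH2 had 5 and 16.

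Most of these peaks lay in coding sequence. In the miR-342-3p list, 13 of 16 pathway peaks were in coding exons (81.2%, 95% CI 57.0 to 93.4%, Wilson, counting error only), against 55.1% of all peaks of the list. The 3′UTR held 2 of 16 (12.5%, CI 3.50 to 36.0%), against 34.2%, and an intron held 1 of 16 (6.25%, CI 1.11 to 28.3%), against 3.91%. In the miR-342-5p list, all 22 pathway peaks were in coding exons (100%, CI 85.1 to 100%), against 70.3% of all peaks on nuclear chromosomes. There were 0 of 22 in a 3′UTR or an intron (CI up to 14.9%), where 18.0% and 5.10% of all nuclear peaks of the list lay. Neighbouring peaks of a gene are not independent, so that these intervals are too narrow. Without NOTCH2, coding exons held 8 of 11 miR-342-3p peaks and 6 of 6 miR-342-5p peaks.

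Seed sites were about as frequent around the pathway peaks as in the lists as a whole. In the miR-342-3p list, 3 of 16 peaks had a 7mer or 8mer within 50 nt of the summit (18.8%, CI 6.59 to 43.0%), against 20.6% of all peaks of the list. Of the other 13, 2 had only the 6 bases that both 7mers share and 11 had none of these matches. A site of miR-342-5p was present at 8 of 22 peaks (36.4%, CI 19.7 to 57.0%), against 33.2% of all nuclear peaks of that list. The nearest site was centred 2 to 9 nt from the summit at the 3 miR-342-3p peaks with a site. At 7 of the 8 miR-342-5p peaks it was centred 1 to 11 nt from the summit, and at the remaining one 43 nt. Distances over the whole lists are not given here. An 8mer was found at 0 of the miR-342-3p peaks and at 1 of the miR-342-5p peaks, the NOTCH2 peak with the score of 170.

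The scores of the miR-342-3p pathway peaks ran from 10 to 133 with a median of 25.5, next to a median of 24 over the whole list. Those of miR-342-5p ran from 5 to 170 with a median of 28, next to 19 over all nuclear peaks. Of the 16 miR-342-3p peaks, 1, in JAG1, scored above 50. The upper quartile of that whole list was 49. Of the 22 miR-342-5p peaks, 9 scored above 50, 7 in NOTCH2 and 2 in ADAM17. The upper quartile over all nuclear peaks of the miR-342-5p list was 37. In the miR-342-3p list the 3 peaks with a site scored 10, 22 and 26, and the 13 without one had a median of 26. In the miR-342-5p list the 8 with a site had a median of 40 and ran from 17 to 170. The 14 without one had a median of 27 and ran from 5 to 160. The peak of 160, in NOTCH2, lacked a site only in its window on the genome. Along the spliced transcript an 8mer lay 10.5 nt from its summit. Scores of the 2 lists were not compared as levels, since the scaling of the libraries is not given in the sources used here.

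**Figure D2:**
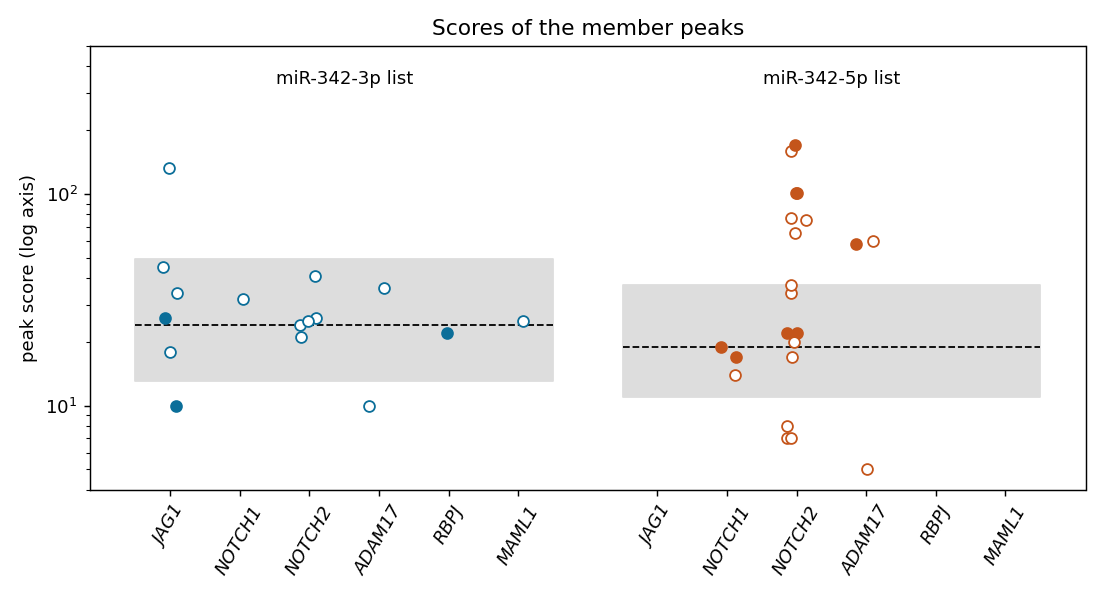
Score of each pathway peak (vertical axis, log scale) by gene (horizontal axis), for the miR-342-3p list (blue, left) and the miR-342-5p list (orange, right). Filled points had a 7mer or 8mer site within 50 nt of the summit, grey bands span the quartiles of all nuclear peaks of the list, and dashed lines mark their medians of 24 and 19.

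JAG1, which encodes the ligand Jagged1 (chr20:10618332-10654647, minus strand, 26 exons), had 6 miR-342-3p peaks, all in coding exons. From 5′ to 3′, the scores were 45 and 34 in exon 2, 10 in exon 6, 26 and 18 in exon 12, and 133 in exon 26. Among the protein-coding genes, 11 had more miR-342-3p peaks than JAG1. The pairs in exon 2 and in exon 12 were each separated by 1 nt, so that the 6 peaks formed 4 separate regions of the transcript. A single binding event split by the peak caller and separate events side by side cannot be told apart within such a pair.

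The 2 JAG1 peaks in exon 2 covered codons 44 to 82 and 83 to 114, near the amino terminus of the ligand. Neither had a 7mer, an 8mer or the shared 6 bases within 50 nt of its summit. The exon 6 peak (codons 269 to 294) and the first exon 12 peak (codons 469 to 506) each held the 7mer-A1 printed for them, 9 nt from the summit in both. These lie in the cysteine-rich extracellular part of the protein, which holds the EGF-like repeats. The second exon 12 peak ended on the last base of its exon, and its window held the shared 6 bases when it was continued into the next exon of the spliced transcript, 19.5 nt from the summit.

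The JAG1 peak with the score of 133 (chr20:10620505-10620603) had the highest score of the gene and no seed match within 50 nt of its summit. It was higher than 92.2% of the miR-342-3p list. It began on the first base of exon 26, the last exon, and covered codons 1067 to 1100. Codons 1068 to 1086 encode the most hydrophobic stretch of 19 residues of Jagged1 beyond its amino terminus, taken here for the membrane-spanning segment, and all of them fell within the peak. The longest pairing to miR-342-3p in its window was 5 nt, and 6 nt on the opposite strand, where the medians over all peaks were 6 and 5 nt.

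The annotated JAG1 transcript had 4 miR-342-3p sites in its coding sequence and 0 in its 3′UTR of 1814 nt. Of the 4, 2 lay near a summit. For miR-342-5p there were 0 sites in the JAG1 transcript and 0 peaks. The genes whose miR-342-3p peaks were most like those of JAG1 had at least 6 coding peaks and none elsewhere. There were 12 such genes with JAG1 included, and JAG1 was in place 5 by its highest score. The 5 others with the highest peaks were EEF1G (6 peaks, highest score 746), PLEC (6 peaks, 523), AHNAK2 (9 peaks, 385), TNC (9 peaks, 176) and DYNC1H1 (6 peaks, 104).

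JAG2, which encodes the related ligand Jagged2 (chr14:105607319-105635161, minus strand), had 0 peaks in both lists. Its coding sequence held 2 sites of miR-342-3p and 1 of miR-342-5p, so that sites in coding sequence of a ligand were not always accompanied by a listed peak.

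NOTCH1 (chr9:139388885-139440500, minus strand, 34 exons), a receptor for both ligand families, had 1 peak in the first list and 3 in the second. The miR-342-3p peak began on the first base of exon 2, covered codons 21 to 40 and had a score of 32 without a site. The miR-342-5p peaks had scores of 19 in exon 10, and 17 and 14 in exon 34, the last exon. Both of the higher 2 had a site, a 7mer-m8 centred 4 nt from the summit in exon 10 and a 7mer-A1 at 9 nt in exon 34. The lowest one ran from codon 2528 over the stop codon, with its summit 2 nt into the 3′UTR, and had no site. The NOTCH1 coding sequence also held an 8mer of each miR-342 strand, and neither had a summit within 50 nt. In all, 2 of 6 miR-342-5p sites and 0 of 4 miR-342-3p sites of this coding sequence lay near a summit.

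NOTCH2 (chr1:120454176-120643366, minus strand, 34 exons), a second receptor of the same structure, had the most peaks of the 10 genes. The 5 miR-342-3p peaks had scores of 41 in exon 8, 21 in exon 9, 24 in exon 17, 26 in exon 26 and 25 in exon 31. All 5 lacked a 7mer or 8mer site within 50 nt of the summit. The spread was narrow and each was a single peak, at least 74 nt from the next along the spliced transcript. Per length of coding sequence, this was 0.674 miR-342-3p peaks per kb, against 1.64 for JAG1.

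The 16 miR-342-5p peaks of NOTCH2 lay in exons 25, 30, 31 and 34, at 2.16 peaks per kb of coding sequence. Only 15 protein-coding genes had more. From 5′ to 3′, the scores were 7, 22 and 22 in exon 25, then 75, 20 and 160 in exon 30, and 170, 8 and 7 in exon 31. In exon 34 they were 65, 101, 34, 37, 77, 101 and 17. The 2 highest scores thus lay side by side at the end of exon 30 and the start of exon 31, exon 34 held both scores of 101, and no peak of exon 25 scored above 22. Many neighbours were 1 to 5 nt apart, and joining peaks separated by at most 10 nt left 6 regions.

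The most hydrophobic stretch of NOTCH2 is encoded by codons 1681 to 1699. The summits of 13 of the 16 miR-342-5p peaks lay beyond it, in the part that encodes the intracellular domain, the fragment that is released and enters the nucleus. The other 3 were those of exon 25 (codons 1354 to 1427), upstream of the membrane-spanning segment. Of the 5 miR-342-3p summits, 4 lay before the stretch and 1 beyond it. The last miR-342-5p peak covered the end of the coding sequence with the stop codon, and 0 were centred in the NOTCH2 3′UTR.

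The 2 highest miR-342-5p peaks of NOTCH2 met across a splice junction. The peak with the score of 160 (chr1:120462852-120462874) was 23 nt wide and had its summit on the last base of exon 30. The peak with the score of 170 (chr1:120462177-120462253) covered the start of exon 31 and ran 17 nt past it into the intron. They were 598 nt apart on the genome and 0 nt apart in the spliced transcript. The 8mer of exon 31 was 7.5 nt from the summit of the second peak, and 10.5 nt from that of the first along the spliced transcript, although no site lay within 50 nt of the first on the genome. In the spliced transcript both summits thus had the 8mer nearby.

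The 5 NOTCH2 peaks with a miR-342-5p site were this one, 2 in exon 34 and 2 in exon 25. Both exon 34 peaks had a score of 101 and a 7mer-A1, at 11 and 3 nt from their summits. The 2 exon 25 peaks scored 22 each. One of them held a pair of 7mer-m8 sites at 1 and 9 nt, and the first of these was also the site of the other peak, 43 nt from its summit. The coding sequence of NOTCH2 held 6 sites of miR-342-5p, of which 5 were near a summit, and 7 of miR-342-3p, of which 0 were, with 1 more in the 3′UTR.

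The lists overlapped in 1 place in these genes, exon 31 of NOTCH2. The miR-342-3p peak there (chr1:120462108-120462236, score 25) overlapped the miR-342-5p peaks with scores of 170, 8 and 7, and its summit was 37 nt from that of the highest. This was 1 of 16 miR-342-3p pathway peaks (6.25%) and 3 of 22 miR-342-5p ones (13.6%), where 2.20% and 1.43% of all nuclear peaks overlapped the other list. The overlap in exon 31 rests on control libraries that both lists share. The human-specific NOTCH2NL genes are partial copies of NOTCH2, and reads can be misplaced between copies. None of the NOTCH2 peaks had a near-identical copy in the NOTCH2NL genes. The closest match, 73.9% identical, was that of a peak only 23 nt wide, with 6 bases different.

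**Figure D3:**
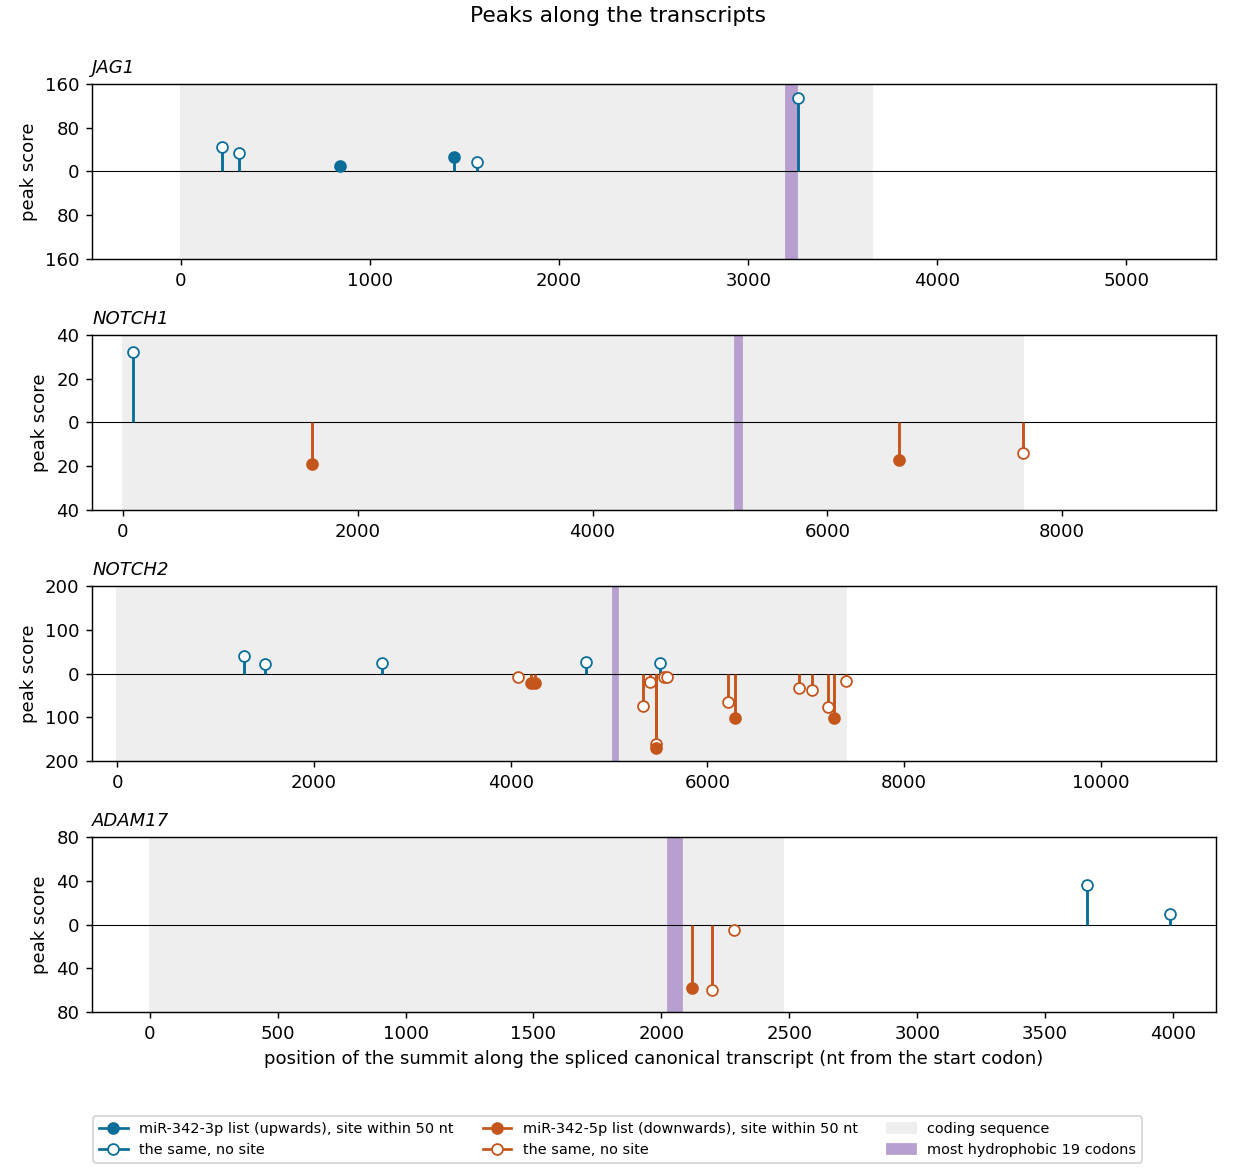
Peak scores (vertical axes, different for each gene) at the position of the summit along the spliced transcript of JAG1, NOTCH1, NOTCH2 and ADAM17 (horizontal axes, nt from the start codon), with miR-342-3p peaks upwards in blue and miR-342-5p peaks downwards in orange, filled where a site lay within 50 nt. Grey marks the coding sequence and violet the most hydrophobic stretch of 19 codons, beyond which 13 of the 16 miR-342-5p summits of NOTCH2 lay.

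NOTCH3 (chr19:15269849-15311806, minus strand), the third receptor, had 0 peaks in both lists. Its coding sequence held 4 sites of miR-342-3p and 1 of miR-342-5p, and its 3′UTR 1 of miR-342-5p.

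ADAM17 (chr2:9628615-9696861, minus strand, 19 exons), a metalloprotease that sheds membrane proteins and can make the first cut in Notch receptors and in their ligands, was bound in different parts by the 2 lists. The 2 miR-342-3p peaks lay in the 3′UTR, with scores of 36 and 10 and summits 1191 and 1516 nt after the stop codon, and neither had a site. The 3 miR-342-5p peaks lay in coding sequence, with scores of 58 in exon 18 and 60 and 5 in exon 19. The exon 18 peak covered the whole exon of 51 nt, codons 695 to 711, and held the 7mer-A1 printed for it, 7 nt from the summit. Those codons directly follow the most hydrophobic stretch, at codons 676 to 694, and all 3 summits thus lay in the part that encodes the cytoplasmic tail. The exon 18 peak and the first exon 19 peak were 22 nt apart in the spliced transcript. No 3′UTR site of either strand was present in ADAM17, and its 1 coding site of miR-342-5p was the bound one.

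NUMB (chr14:73741815-73925323, minus strand), an adaptor that directs Notch receptors to endocytosis and degradation, had 0 peaks in both lists. Its transcript held 0 sites of either strand.

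RBPJ (chr4:26165077-26436753, plus strand), the DNA-binding protein to which the Notch intracellular domain attaches, had a single peak, in the miR-342-3p list. It lay at chr4:26325970-26326039 with a score of 22, in intron 1 of the canonical transcript and in no exon of its 17 annotated basic transcripts. Its 7mer-m8 was 2 nt from the summit, and the longest run of alternating G and U in the window was 25 nt. The last G of the 7mer is followed by such a run, of which the printed sequence shows only the start. Pairing extended from base 2 to base 9 of the miRNA. The median longest run of this kind was 5 nt over all miR-342-3p peaks. The spliced RBPJ transcript itself held 0 sites of either miR-342 strand. Intronic peaks with a site were common in this list, at 48.9% of 135 intronic peaks.

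MAML1 (chr5:179159823-179204284, plus strand), which binds the complex of RBPJ and the Notch intracellular domain and recruits histone acetyltransferases, had a single peak, of miR-342-3p, in exon 2 (codons 460 to 523, score 25). The MAML1 peak was the widest of the miR-342-3p peaks in these genes, at 190 nt, and had no site. Its 3′UTR held 1 site of each strand and its coding sequence 1 site of miR-342-5p, none with a listed peak nearby. HES1 (chr3:193853937-193856521, plus strand), a transcriptional repressor and a classic target of the pathway, had 0 peaks in both lists, with 1 miR-342-5p site in its coding sequence.

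Some of the miR-342-3p peaks without a site had a further sequence feature, a match to bases 3 to 8 of the miRNA, GUGUGA, which is shifted by 1 base from the seed sites above. The highest of these peaks, in JAG1 with a score of 133, did not have it. This feature was chosen after the sequences were seen. It was present at 7 of the 13 peaks without a site, in JAG1, NOTCH1, NOTCH2, ADAM17 and MAML1. The NOTCH1 match is not printed, because an equally long pairing to bases 1 to 6 was taken for that window. The others are printed with the paired bases in capitals:
NOTCH2, score 41, chr1:120510206-120510212, minus strand: augcaggaaaaUGUGUGAacacggauggc
NOTCH2, score 21, chr1:120509053-120509059, minus strand: agagcaacccuUGUGUGAacaaugggcag
NOTCH2, score 24, chr1:120491096-120491102, minus strand: gggcagcuacaUGUGUGAauguccaccag
ADAM17, score 36, chr2:9629099-9629106, minus strand: ggcugcauuuaCUGUGUGAaggauaaaaau
JAG1, score 45, chr20:10653521-10653526, minus strand: cacccgcgacgaGUGUGAcacauacuucaa
MAML1, score 25, chr5:179193417-179193422, plus strand: ucaugaugccuaGUGUGAauaagaguuccc
The 3 NOTCH2 matches, in exons 8, 9 and 17, were the same word, which pairs with bases 3 to 9 of miR-342-3p, and all 3 were within 10 nt of the summit. The ADAM17 match paired with bases 3 to 10 and was 12.5 nt from the summit. Such a match in the absence of a site was found at 7 of 16 pathway peaks (43.8%, CI 23.1 to 66.8%) and at 16.2% of all miR-342-3p peaks. Because the match was noticed in these peaks, these shares are a description. On the other strand it was present at 0 of 16, against 1.36% over the list. The corresponding match to bases 3 to 8 of miR-342-5p was found at 0 of the 22 miR-342-5p peaks in the absence of a site, against 5.12% of all.

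Read from the side of the sequences, most pathway sites of miR-342-3p had no summit within 50 nt. The annotated transcripts of the 10 genes held 24 sites of miR-342-3p, 22 of them in coding sequence and 2 in 3′UTRs, and 2 lay within 50 nt of a summit, both in JAG1. They held 19 sites of miR-342-5p, 17 coding and 2 in 3′UTRs, and 8 lay near a summit. Within the genes that had a peak of the same list, 2 of 16 coding sites of miR-342-3p were near a summit (12.5%), against 40.1% over all genes with a peak. For miR-342-5p these were 8 of 13 (61.5%), against 59.2%. The pathway genes were thus lower than the miR-342-3p list as a whole and close to that of miR-342-5p, with few sites behind each share.

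The wider pathway was described with 52 further genes in 6 groups. The miR-342-3p list reached 10 of them (19.2%) with 14 peaks, 6 in coding exons, 7 in 3′UTRs and 1 in an intron, of which 5 had a site. The miR-342-5p list reached 20 (38.5%) with 92 peaks. Of these 92, 83 were in coding exons and 23 had a site. Both lists held 5 of the genes and neither held 27. The other ligands, DLL1, DLL3 and DLL4, and the receptor NOTCH4 had no peak in either list. For comparison, each list reached 11.8% of all protein-coding genes. Coding exons held 55.1% of all nuclear miR-342-3p peaks and 70.3% of all nuclear miR-342-5p peaks. A site was present at 20.6% and 33.2% of them. The 52 genes were also chosen with earlier results known, so that their shares and group counts are not to be read as an enrichment.

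By group, the 15 genes that modify or release ligands and receptors were reached by the first list in 5 cases and by the second in 6. The 10 genes of endocytosis and turnover had peaks in 2 and 3. Of the 16 nuclear co-activators and co-repressors described, 3 had a miR-342-3p peak and 10 a miR-342-5p peak. That group held 78 of the 92 miR-342-5p peaks, 75 of them in coding exons. Of the 7 target genes, 0 and 1 had a peak. The miR-342-5p peaks of the wider pathway were thus largely those of the nuclear co-factors, and few of these genes carried most of them.

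The 5 highest miR-342-3p peaks by gene were in the 3′UTR of LFNG (score 490, no site), a glycosyltransferase that modifies Notch EGF-like repeats, in the coding sequence of EP300 (109, no site), a histone acetyltransferase, in the 3′UTR of GXYLT1 (58, an 8mer), a xylosyltransferase that acts on the same repeats, in the coding sequence of PSEN2 (53, no site), a catalytic subunit of γ-secretase, and in the 3′UTR of FBXW7 (20, no site), which targets the Notch intracellular domain for degradation. The 5 highest miR-342-5p peaks by gene began with CCND1 (score 404, 3′UTR, a 7mer-m8), which encodes cyclin D1. SPEN (148, coding, a 7mer-A1), a co-repressor that keeps RBPJ targets silent, followed and had 36 miR-342-5p peaks in all. NCOR1 (58), a nuclear receptor co-repressor, and ADAM10 (53), the main protease of the first receptor cut, had no site at their highest peaks, which were coding. The highest peak of XXYLT1 (51), another xylosyltransferase of the EGF-like repeats, was also coding and had an 8mer.

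**Figure D4:**
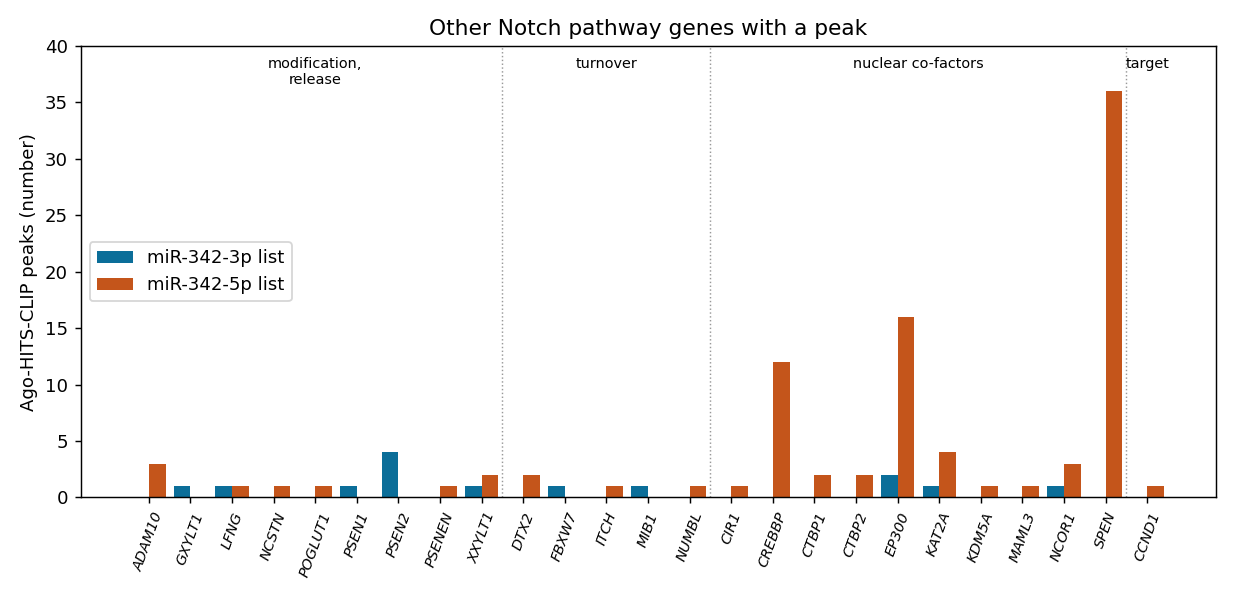
Number of peaks (vertical axis) in each of the other Notch pathway genes with a peak in at least 1 list (horizontal axis), in the miR-342-3p list (blue) and the miR-342-5p list (orange), with dotted lines between the functional groups. SPEN with 36 miR-342-5p peaks stands above the other genes shown, whose counts reach 16.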

How the data were processed

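Reads of 9 Ago-HITS-CLIP libraries were processed by the authors, who per the submitters' notes used cutadapt 1.13, TopHat2 2.0.13, UMI-tools and MACS2 2.1.1.20160309 with hg19, and per the paper's methods filtered alignments by quality with Samtools. The authors deposited 2 lists of peaks with position, strand, summit and a score, called over the negative control mimic with strands called separately and replicates merged, and other columns hold names and positions. How libraries were scaled, and what the score was computed from beyond reads above background, is not given in the sources used here.

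Coordinates were read as 0-based starts and given 1-based. Placement was on GRCh37 with GENCODE release 44 mapped to it (basic transcripts) by midpoint and strand, with 3′UTR before coding exon (stop codon included), 5′UTR, non-coding exon and intron. Numbers over whole lists leave out 47 mitochondrial miR-342-5p peaks. Exon and codon numbers, hydrophobic stretches (Kyte-Doolittle scale, 19 residues, leaving out the first 50) and sites per transcript refer to the Ensembl canonical transcript. Sites were searched within 50 nt of the summit on the genome, and the longest uninterrupted Watson-Crick pairing of the mature miRNA in the same window. Seed sequences came from RefSeq, which held both miRNAs. A NOTCH2 peak was counted as a near copy if at most 5% of its bases differed from a NOTCH2NL gene.

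Because each list merges 3 replicates, results are counts, scores and shares with 95% Wilson intervals, without tests. Named genes were all 10 members, the 5 genes with the highest peaks of the wider pathway in each list, and the 5 most like JAG1. From the wider pathway, 1 gene is not reported here and is left out of its counts. Members and gene lists were chosen with earlier results of these data known. Python 3.11.15, pysam 0.24.0, samtools 1.23.1, statsmodels 0.14.6, numpy 2.4.6, Biopython 1.88 and matplotlib 3.10.9 were used, and the search for sites and the placement were tested on simulated data.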

Additional observations from a re-analysis of the deposited data

How the results depend on the processing

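No paired analysis was possible because the lists merge the replicates and carry no value per library. Of 87 values under other settings, 66 stayed within 1.5 times the reported count. Some of the 66 could not move. A minimum score of 10 could not change the miR-342-3p counts, whose lowest score was 10, and a stricter score could not lower a count of 0. Peaks with a score above 50 left 1 miR-342-3p peak in 1 gene, 1 in a coding exon, 0 in a 3′UTR, 0 in an intron and 0 with a site, and 9 miR-342-5p peaks, all 9 in coding exons and 4 with a site. With 8mers alone, 0 miR-342-3p and 1 miR-342-5p peaks had a site, and 5 miR-342-3p peaks did with 6mers added. Searched over the whole peak in place of the window, 4 miR-342-3p and 7 miR-342-5p peaks had a site. Placement by any overlap or by the summit put 1 miR-342-5p peak, that of NOTCH1 at the stop codon, in a 3′UTR. With midpoints within 25 nt counted as overlap, 1 miR-342-5p peak overlapped the other list. The settings that follow were chosen after seeing the data. Joining neighbouring peaks left 11 miR-342-5p peaks, and 10 along the spliced transcript. With the window laid along the spliced transcript, 9 miR-342-5p peaks had a site. Without NOTCH2, 8 miR-342-3p peaks were in coding exons, and 6 miR-342-5p peaks were left, 6 in coding exons and 3 with a site. These results turn on NOTCH2, on the score minimum and on what counts as 1 peak. Depth is unknown, so that a gene without a peak may have been bound below the minimum score.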

Other observations

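Several pathway peaks stopped at an exon edge. Of the coding peaks, 5 of 13 in the miR-342-3p list and 3 of 22 in the miR-342-5p list had an end exactly on the first or last base of an exon. The share over all coding peaks of the lists is not given here, so that this cannot be read as a trait of these genes. Peaks of the 2 lists had similar widths in these genes, with medians of 83 and 75.5 nt, next to 65 and 78 nt over all nuclear peaks. The GC content of the windows had medians of 51.5% and 57.4%, next to 49.5% and 59.4%. The NOTCH2NL genes had peaks of their own, 2 of miR-342-3p and 1 of miR-342-5p, which were not counted for NOTCH2.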
